A study of Mus musculus with 2 samples.

Results

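Tumor fibroblasts were the connective tissue cells among 6335 quality-filtered cells of subcutaneous Lewis lung carcinoma (LLC) tumors, and 80 cells met the definition. They were chosen by their UMIs (unique molecular identifiers, each standing for 1 captured transcript): at least 10 UMIs of Col1a1, Col1a2 and Col3a1 together and at least 2 of Dcn, with fewer than 3 UMIs of C1qa, C1qb and C1qc, 0 of Cd79a and Cd3e, fewer than 3 of Krt8 and Rhox5, and S100a8 and S100a9 under 1% of the cell's UMIs. Quality-filtered cells had at least 200 detected genes, under 10% mitochondrial UMIs and more than 500 UMIs.

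Fibroblasts make the collagen scaffold of connective tissue, and in tumors they lay down matrix, secrete chemokines that call in leukocytes, and can turn into contractile myofibroblasts. TGF-beta, acting through receptors that phosphorylate Smad2 and Smad3, is the classical inducer of collagen synthesis and of the contractile genes in these cells. Inflammatory cytokines drive a different program in fibroblasts, with acute-phase proteins and chemokines.

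The study compared neutrophils of wild-type and Smad3-deficient mice. C57BL/6 mice, 8-12 weeks old, of genotype Smad3+/+ (Smad3-WT) or Smad3-/- (Smad3-KO), carried subcutaneous LLC tumors, LLC being a mouse lung carcinoma line. The disrupted Smad3 allele of the Smad3-KO mice was present in the whole body, whereas the LLC cells did not come from these mice. CD11b+Ly6G+ cells of 8 pooled tumors per genotype were sorted by FACS and made into 1 library per genotype with a 5′ kit. The sort was set to collect neutrophils, so the fibroblasts are cells that came through it, and their number says nothing of how many the tumors held. With 1 library per genotype there was no replicate, genotype was not tested, and every interval below is a 95% interval that covers counting error only.

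Sequencing gave 23951400 UMIs over 4116 Smad3-WT barcodes and 4214290 UMIs over 2514 Smad3-KO barcodes. Fibroblasts were 25 of 3902 quality-filtered Smad3-WT cells (0.641%, exact Clopper-Pearson interval 0.415-0.944%) and 55 of 2433 Smad3-KO cells (2.26%, 1.71-2.93%). The libraries also differed in what surrounded the fibroblasts: carcinoma cells were 543 in Smad3-WT and 0 in Smad3-KO, and lymphocytes 31 and 617. The Smad3-WT fibroblasts had 144080 UMIs in all, with a lowest, median and highest depth of 532, 5517 and 13278 UMIs and a median of 2122 genes. The Smad3-KO fibroblasts had 302770 UMIs, with 604, 4373 and 14564 UMIs per cell and a median of 1814 genes. Median mitochondrial shares were 3.36% and 3.21%. Without barcodes found in both libraries, described next, the median depths were 6239 and 4081 UMIs, so the Smad3-WT fibroblasts were the deeper ones.

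Some barcodes occurred in both libraries, and 4 of the Smad3-WT fibroblasts were of this kind. In all, 73 barcode sequences were shared, the Smad3-WT barcode being over 10 times deeper in 47 of them and over 10 times shallower in 13, and 5 of these pairs involved a fibroblast. In each of the 5 the Smad3-KO cell was deep (11199 to 14564 UMIs) and its Smad3-WT counterpart shallow (532 to 649 UMIs), at 4.30% to 4.97% of the Smad3-KO depth. Whether the shallow barcodes hold RNA of the deep cell in the other library was not tested. The 4 Smad3-WT cells held 1.65% of all Smad3-WT fibroblast UMIs. Values are therefore also given without the shared barcodes, which leaves 21 Smad3-WT and 50 Smad3-KO fibroblasts.

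The cells carried the genes of their name beyond the 4 genes of the definition. Pdgfra, the receptor for platelet-derived growth factor that marks fibroblasts and was not part of the definition, had UMIs in 17 of 25 Smad3-WT fibroblasts (68.0%) and 37 of 55 Smad3-KO fibroblasts (67.3%), against 0 of 31 and 0 of 617 lymphocytes, whose median depths were 4504 and 1363 UMIs. Carcinoma cells, with a median depth of 21878 UMIs, had Pdgfra UMIs in 80 of 543, and macrophages in 3 of 355 and 1 of 24. The genes of resting connective tissue fibroblasts, Pi16, Clec3b, Dpt, Cd34, Ly6a, Gsn, Mfap5 and Col14a1, were present in both libraries, for example Clec3b at 1624 CPM in Smad3-WT and 1708 CPM in Smad3-KO (CPM, the UMIs of a gene summed over the fibroblasts of a library and scaled to a total of 1000000). Fap and Lrrc15, named with matrix-producing tumor fibroblasts, were sparse, at 6 and 11 UMIs for Fap and 4 and 6 for Lrrc15. Among markers of other cell types, Krt8 and all 7 T and NK cell markers had 0 UMIs (the definition capped Krt8 and held Cd3e at 0), endothelial markers 18 and 28, pericyte and smooth muscle markers 12 and 29, mesothelial markers 0 and 10, all of them Wt1, and Schwann cell markers 0 and 2. Adipocyte and muscle markers had 18 and 177 UMIs, most of them Lpl, lipoprotein lipase. Macrophage markers had 569 and 452 UMIs and neutrophil markers 257 and 324, and 13 of 25 and 37 of 55 fibroblasts had no UMI of 10 marker genes of other lineages. B cell markers had 0 and 16 UMIs, most of them Ighm, dendritic cell markers 13 and 43, most of them Fscn1, and carcinoma markers 9 and 34, nearly all Cav1, which fibroblasts also express. The leukocyte gene Ptprc was at 9 and 4 UMIs.

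Members lay clear of the collagen threshold. The summed collagen UMIs of a cell ran from 11 over a median of 340 to 1132 in Smad3-WT and from 11 over 260 to 1520 in Smad3-KO, and 1 cell in each library had under 20. Dcn was at 2 or 3 UMIs in 3 and 5 cells. Just outside, no cell that met the other terms had 5 to 9 collagen UMIs or 1 Dcn UMI, while 5 Smad3-WT and 3 Smad3-KO cells had at least 10 collagen UMIs with no Dcn.

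**Figure D1:**
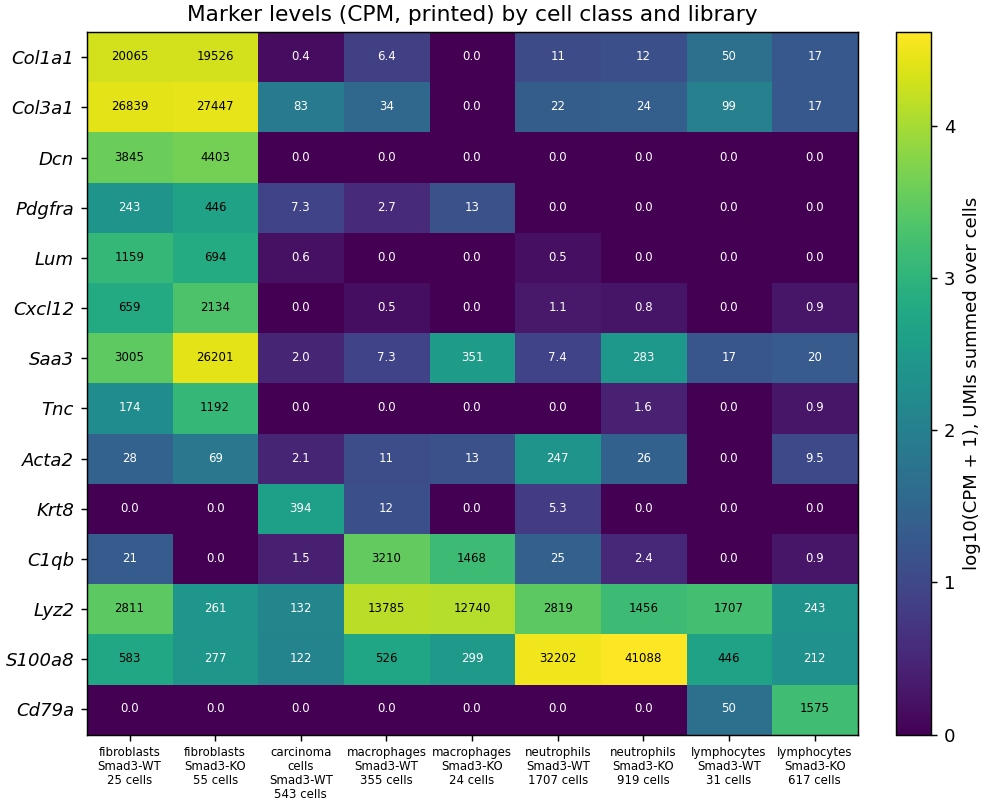
Levels of 14 genes (rows) in fibroblasts and the other cell classes of each library (columns), with CPM of the summed cells printed and coloured on a log10 scale. The fibroblast columns hold Col1a1 at 20065 and 19526 CPM, while Krt8, C1qb and Cd79a lie near 0 there by the definition.

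Against all other cells of their library, 281 of 1229 genes with at least 50 UMIs (22.9%) were at least 4-fold higher in fibroblasts of both libraries. Fibroblasts were chosen on such genes, so this is a description. The 15 with the greatest fold in the lower of both libraries ran from 211-fold to 374-fold: Mmp3, a matrix protease, Ptx3, Dpep1, Chl1, Serpina3n, Cxcl12, Adgrd1, Cthrc1, Srpx, Rarres2, the precursor of chemerin, Lox, Il33, Fbln1, Igfbp5 and Mfap5. Of the 20 most abundant genes of each library, leaving out mitochondrial and ribosomal protein genes, 17 were shared. Col3a1, Col1a1, Col1a2 and Sparc led in Smad3-WT, and Col3a1, Saa3 and Col1a1 in Smad3-KO. A 5′ kit gives 1 tag per transcript, so these CPM are not divided by length.

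Between the libraries, 100 of the 1229 genes (8.14%) were at least 2-fold higher in Smad3-KO fibroblasts and 59 (4.8%) at least 2-fold lower. The median log2 ratio, Smad3-KO over Smad3-WT, of these genes was -0.09, and 540 of them were above 0. Scaling the libraries by the median of ratios moved that median to 0.11 on the log2 scale and gave 141 genes higher and 35 lower, and directions of genes within this shift depend on the scaling.

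The major matrix genes stood at like levels in both libraries, while single matrix genes were further apart. Over 64 listed matrix genes (collagens, glycoproteins and proteoglycans), the summed level was 102464 CPM in Smad3-WT and 100733 CPM in Smad3-KO, a ratio of 0.98 (0.96-1.0), or 102301 and 98033 CPM without the shared barcodes. Leaving out Col1a1, Col1a2, Col3a1 and Dcn, which selected the cells, the sums were 34661 and 35231 CPM, a ratio of 1.02 (0.98-1.05). Of the 45 with at least 50 UMIs, 7 were at least 2-fold higher (15.6%, compared with 8.14% of all genes) and 2 at least 2-fold lower (4.44%, compared with 4.8%), with a median log2 ratio of 0.16. The sum of all 64 lay below 0 on the log2 scale as summed and above 0 under median-of-ratios scaling.

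Col1a1, 1 of the chains of type I collagen (mm10 chr11:94936224-94953042), stood at 20065 CPM in Smad3-WT and 19526 CPM in Smad3-KO, a ratio of 0.97 (0.93-1.02). Col1a2, the partner chain, stood at 17053 and 14126 CPM, a ratio of 0.83 (0.79-0.87). Col3a1, type III collagen (chr1:45311538-45349706), stood at 26839 and 27447 CPM, a ratio of 1.02 (0.98-1.06). These 3 genes and Dcn, a small proteoglycan that binds collagen fibrils (3845 and 4403 CPM, 1.15), selected the cells, and their values are a description. Among matrix genes that played no part in the selection, Sparc, a collagen-binding glycoprotein, was at 10973 and 9743 CPM (0.89, 0.83-0.94) and fibronectin (Fn1) at 2422 and 2507 CPM (1.03, 0.91-1.18).

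Of the matrix genes past 2-fold, Tnc (tenascin C, a matrix glycoprotein made in wounds, chr4:63959785-64047015) was the furthest apart, at 174 CPM in Smad3-WT and 1192 CPM in Smad3-KO, a ratio of 6.87 (4.58-10.8), or 134 and 694 CPM without the shared barcodes. As the mean over cells its log2 ratio was 0.34, short of 2-fold, or 2.21 without the shared barcodes. Its UMIs sat in 7 of 25 and 17 of 55 cells, so most fibroblasts of either library had none. Col5a3 (285 and 822 CPM, 2.89), Col4a1, a basement membrane collagen (111 and 327 CPM, 2.94), Col12a1, which coats fibrils (208 and 502 CPM, 2.41), Lamb1, a laminin chain (62.5 and 195 CPM, 3.12), Efemp2, needed for elastic fibers (312 and 727 CPM, 2.33) and Spon2 (34.7 and 149 CPM, 4.28) were the other 6 at least 2-fold higher. Col12a1 came to 198 and 341 CPM without the shared barcodes, a ratio of 1.73. Thbs1 and Thbs2, the thrombospondins, were lower in Smad3-KO: Thbs1 1048 and 281 CPM (0.27, 0.20-0.35) and Thbs2 666 and 244 CPM (0.37, 0.27-0.50). Thbs2 and Col5a3 were short of 2-fold as the mean over cells, at log2 ratios of -0.81 and 0.86. That mean without the shared barcodes gave -1.01 and 1.41, past 2-fold. Thbs1 is not particular to fibroblasts here, as the other cells of each library held 1275 and 1673 CPM.

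Enzymes that process collagen gave 3 of 17 genes at least 2-fold higher (17.6%, compared with 8.14% of all genes) and 0 lower (compared with 4.8%), with a median log2 ratio of 0.12. Lox, which cross-links collagen, stood at 423 and 908 CPM (2.15, 1.62-2.88), Loxl2 of the same family at 250 and 684 CPM (2.74, 1.91-4.01), and Plod2, which hydroxylates collagen lysines, at 62.5 and 208 CPM (3.33, 1.65-7.62). Without the shared barcodes Lox came to 1.97. Its log2 ratio as the mean over cells was 0.47, or 0.86 without the shared barcodes, both short of 2-fold. The collagen chaperone Serpinh1 lay the other way, at 1985 and 1417 CPM (0.71, 0.61-0.83). Among proteases and their inhibitors 2 of 11 were at least 2-fold higher (18.2%, beside the same 8.14%) and 0 lower, with a median log2 ratio of -0.16. Timp1, an inhibitor of matrix metalloproteinases, stood at 729 and 2259 CPM (3.10, 2.52-3.84), with UMIs in 19 of 25 and 28 of 55 cells. As the mean over cells its log2 ratio was 0.0043, or 0.99 without the shared barcodes, both short of 2-fold. Timp3, of the same family, was at 139 and 291 CPM (2.09, 1.28-3.59).

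The summed inflammatory genes were higher in the Smad3-KO fibroblasts, with single members on either side. The 42 listed genes summed to 12667 CPM in Smad3-WT and 45563 CPM in Smad3-KO fibroblasts, a ratio of 3.60 (3.43-3.78), or 11608 and 41250 CPM without the shared barcodes. Of 26 with at least 50 UMIs, 13 were at least 2-fold higher (50%, compared with 8.14% of all genes). Only 1 was at least 2-fold lower (3.85%, compared with 4.8%), and 19 lay above 0. Their median log2 ratio was 1.29 against -0.09 over all genes. This list, like the others here, was chosen with earlier results of these data known, so its distance from all genes is a description. Leaving Saa3 out, the sums were 9661 and 19361 CPM, a ratio of 2.0 (1.89-2.13). The other cells pooled also summed higher in Smad3-KO, at 8660 and 33418 CPM for the whole list and 8654 and 33137 CPM without Saa3. These cells were a different mix in each library, and Cxcl2 alone held 3648 and 20112.5 CPM of their sums. How far the mix of cells set that difference was not tested. In fibroblasts under 5000 UMIs the log2 ratio of the list was -0.45, or 0.58 without the shared barcodes. When each cell was given the same weight, in place of its UMIs, the log2 ratio of the list came to 0.61 with all fibroblasts and to 1.47 without the shared barcodes, compared with 1.85 as summed.

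**Figure D2:**
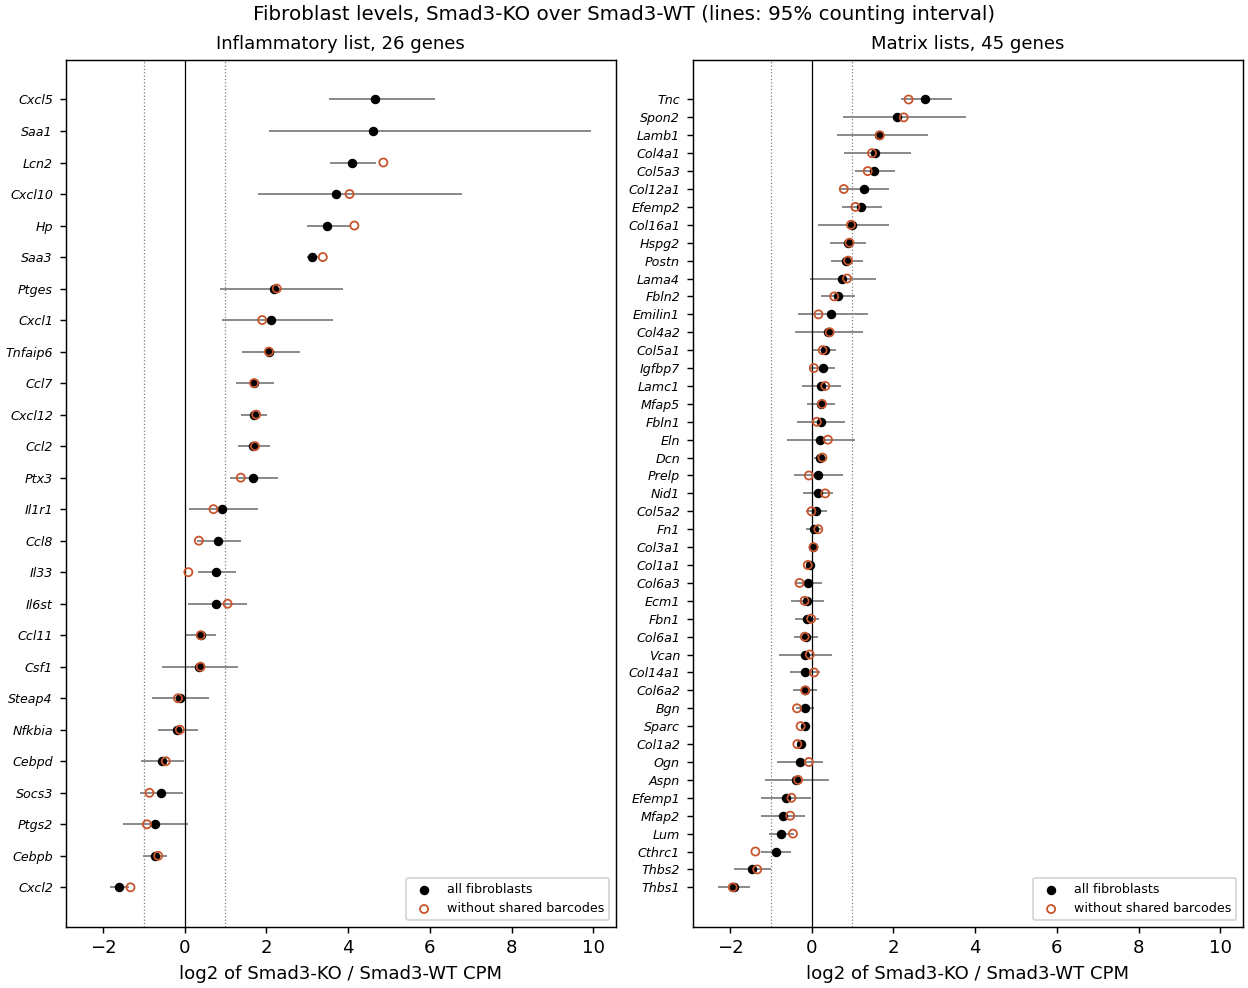
The log2 ratio of Smad3-KO to Smad3-WT CPM for each inflammatory gene (left) and matrix gene (right) with at least 50 UMIs, with 95% counting intervals as lines, open circles for values without shared barcodes and dotted lines at 2-fold. Cxcl5, Saa1, Lcn2, Cxcl10, Hp and Saa3 stand apart at the top of the inflammatory genes, while most matrix genes lie near 0.

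Acute-phase genes held most of that difference. Saa3, a serum amyloid A protein made locally by fibroblasts, fat cells and macrophages (chr7:46711998-46715700), was at 3005 CPM in Smad3-WT (433 UMIs) and 26201 CPM in Smad3-KO (7933 UMIs), a ratio of 8.72 (7.91-9.63). Without the shared barcodes it stood at 2293 and 23891 CPM, a ratio of 10.4. Lcn2, lipocalin 2, which withholds iron from bacteria (chr2:32384633-32388252), was at 194 and 3309 CPM (17.0, 11.7-25.8), or 91.7 and 2668 CPM (29.1) without the shared barcodes. Hp, haptoglobin, which binds free hemoglobin (chr8:109575128-109579172), was at 229 and 2573 CPM (11.2, 7.93-16.4), or 127 and 2260 CPM (17.8) without them. Saa1, a near relative of Saa3 whose tags could partly be shared with it, had 1 UMI and 51 UMIs. Ptx3, a pentraxin of innate defense, was at 201 and 644 CPM (3.20, 2.16-4.90). All 5 were higher in the Smad3-KO library with and without the shared barcodes. When each cell was given the same weight their log2 ratios ranged from 0.59 (Hp) to 0.94 (Saa3), short of 2-fold. The shared barcodes were 4 of the 25 cells so weighted in Smad3-WT, and without them the equal-weight log2 ratios were 3.04 for Saa3, 4.51 for Lcn2, 3.57 for Hp and 1.5 for Ptx3.

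Lcn2 and Hp are also neutrophil transcripts, and Lcn2 differed between the libraries there as well. In neutrophils Lcn2 stood at 532 CPM in Smad3-WT and 7788 CPM in Smad3-KO, and Hp at 483 and 488 CPM. Lymphocytes, which should lack Lcn2, held 116 and 230 CPM of it, with UMIs in 12.9% and 8.75% of cells, compared with 24.0% and 47.3% of fibroblasts. Saa3 in lymphocytes was at 16.5 and 19.9 CPM, with UMIs in 6.45% and 2.59% of cells, compared with 48.0% and 52.7% of fibroblasts, at median depths of 4504 and 1363 UMIs in lymphocytes and 5517 and 4373 UMIs in fibroblasts. With each cell thinned to 1000 UMIs, which left out 4 Smad3-WT and 2 Smad3-KO fibroblasts, Saa3 was seen in 3 of 21 and 27 of 53 cells, Lcn2 in 2 of 21 and 22 of 53, and Hp in 1 of 21 and 14 of 53. The level of Saa3 in Smad3-KO fibroblasts was thus far above that in Smad3-KO neutrophils (283 CPM) and macrophages (351 CPM), whereas for Lcn2 the neutrophils held more.

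Chemokines and cytokine genes followed in part. Cxcl5, a chemokine for neutrophils (chr5:90759360-90761624), was at 41.6 and 1060 CPM (25.5, 11.6-69.9) with 33.6% of the Smad3-KO UMIs in 1 cell. Without the shared barcodes it had 0 Smad3-WT UMIs and stood at 488 CPM in Smad3-KO. Cxcl12, the ligand of Cxcr4 (chr6:117168535-117181367), was at 659 and 2134 CPM (3.24, 2.61-4.06). Ccl2 and Ccl7, which recruit monocytes, stood at 437 and 1404 CPM (3.21, 2.46-4.25) and at 312 and 1017 CPM (3.26, 2.38-4.56). Lymphocytes held 413 and 12.1 CPM of Ccl2 and 253 and 3.46 CPM of Ccl7. The part of free RNA in the fibroblast values of these 2 genes was not tested. The log2 ratio of Ccl2 as the mean over cells was 0.58, short of 2-fold, and 1.98 without the shared barcodes. Cxcl12 and Ccl11 were broad. Ccl11, a chemokine for eosinophils, had UMIs in 18 of 25 and 43 of 55 fibroblasts, and Cxcl12 in 17 of 25 and 42 of 55 but in 0 of 31 and 1 of 617 lymphocytes, and Cxcl12 after thinning in 7 of 21 and 30 of 53 fibroblasts. Tnfaip6, a hyaluronan-binding protein (4.21, 2.65-7.06), Ptges, a prostaglandin E synthase (4.57, 1.83-14.7), and Cxcl1 (4.36, 1.88-12.4) were also at least 2-fold higher, the last from only 6 and 55 UMIs, 45.5% of the latter in 1 cell. As the mean over cells Cxcl1 turned to a log2 ratio of -0.31, or 2.36 without the shared barcodes. Cxcl10, an interferon-induced chemokine, had 2 and 55 UMIs, all 55 in 1 cell. Il6 (0 and 23 UMIs) and Csf3 (1 and 43 UMIs), both in 9 Smad3-KO cells, fell short of 50 UMIs and were noted after their values were seen.

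Other members of the list did not go along. Cxcl2, a neutrophil chemokine, was lower in Smad3-KO fibroblasts, at 2436 and 806 CPM (0.33, 0.28-0.39). It was among the most abundant neutrophil transcripts, at 30012 and 48658 CPM, and stood at 1206 and 1602 CPM in lymphocytes, and the part of free RNA in its fibroblast values was not tested. Ccl11 (1.31), Il33 (1.71, or 1.07 without the shared barcodes) and Ccl8 (1.77, or 1.27) were between 1-fold and 2-fold higher. As the mean over cells Il33 lay the other way, with a log2 ratio of -0.57, but 0.011 without the shared barcodes. The transcription factor genes Cebpb (1291 and 779 CPM, 0.60) and Cebpd (0.68), the feedback inhibitor Socs3 (0.67) and Nfkbia, the inhibitor of NF-kB (0.88), were on the lower side, none of them 2-fold.

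The promoters of the acute-phase genes are shown because C/EBP and NF-kB sites are the textbook route by which cytokines switch these genes on. Of 11 genes looked up, 7 had a RefSeq promoter, and the letters TTGCNNAA, the core of a C/EBP site, occurred on either strand in 4 of them, Saa3, Saa1, Lcn2 and Ptx3, while 9.56% of 32851 promoters held them. GGG and CC set 5 bases apart, the core of an NF-kB site, occurred on either strand in 5, Saa1, Lcn2, Cxcl12, Timp1 and Tnc, with 45.8% of all promoters holding them. The windows below end at the base before the first annotated exon, from RefSeq on GRCm38.p6, with the C/EBP letters in capitals on whichever strand is printed.
Saa3, chr7:46715701-46715926, minus strand: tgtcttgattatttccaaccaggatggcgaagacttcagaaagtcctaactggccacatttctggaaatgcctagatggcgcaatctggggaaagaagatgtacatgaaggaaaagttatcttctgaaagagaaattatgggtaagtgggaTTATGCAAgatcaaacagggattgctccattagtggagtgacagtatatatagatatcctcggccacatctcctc
Saa1, chr7:46742981-46743230, minus strand: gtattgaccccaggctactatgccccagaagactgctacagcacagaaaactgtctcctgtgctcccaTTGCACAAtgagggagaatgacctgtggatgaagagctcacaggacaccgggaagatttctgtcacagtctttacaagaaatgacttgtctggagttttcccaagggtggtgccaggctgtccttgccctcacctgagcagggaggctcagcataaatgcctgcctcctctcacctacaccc
Ptx3, chr3:66219637-66219886, plus strand: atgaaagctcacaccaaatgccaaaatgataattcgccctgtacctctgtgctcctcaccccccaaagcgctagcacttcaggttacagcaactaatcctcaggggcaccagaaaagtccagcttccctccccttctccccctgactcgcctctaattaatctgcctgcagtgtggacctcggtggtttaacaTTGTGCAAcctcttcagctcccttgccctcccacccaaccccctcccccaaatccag
In Saa3 the letters lie toward the transcription start, in Saa1 in the part farther from the gene, and in Ptx3 within the part nearer the gene. A match in this window is a description of sequence and not a site in use.

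Single cells showed that the inflammatory genes were uneven among fibroblasts and the matrix genes less so. Matrix genes took 3.89% of a cell's UMIs at the lowest, 10.2% at the median and 19.9% at the highest in Smad3-WT, and 0.641%, 9.06% and 24.1% in Smad3-KO. Inflammatory genes took 0.161%, 1.15% and 12.5% in Smad3-WT and 0%, 1.28% and 13.2% in Smad3-KO. The medians of the libraries thus lay close together for both groups of genes, while the upper quartile of the inflammatory genes was 1.66% in Smad3-WT and 5.08% in Smad3-KO. The highest Smad3-WT cells were those with shared barcodes: without them the Smad3-WT values ran from 0.161% over 0.715% to 3.38%, and the Smad3-KO median was 0.887% with the highest cell still at 13.2%. The ranges overlapped in every program.

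**Figure D3:**
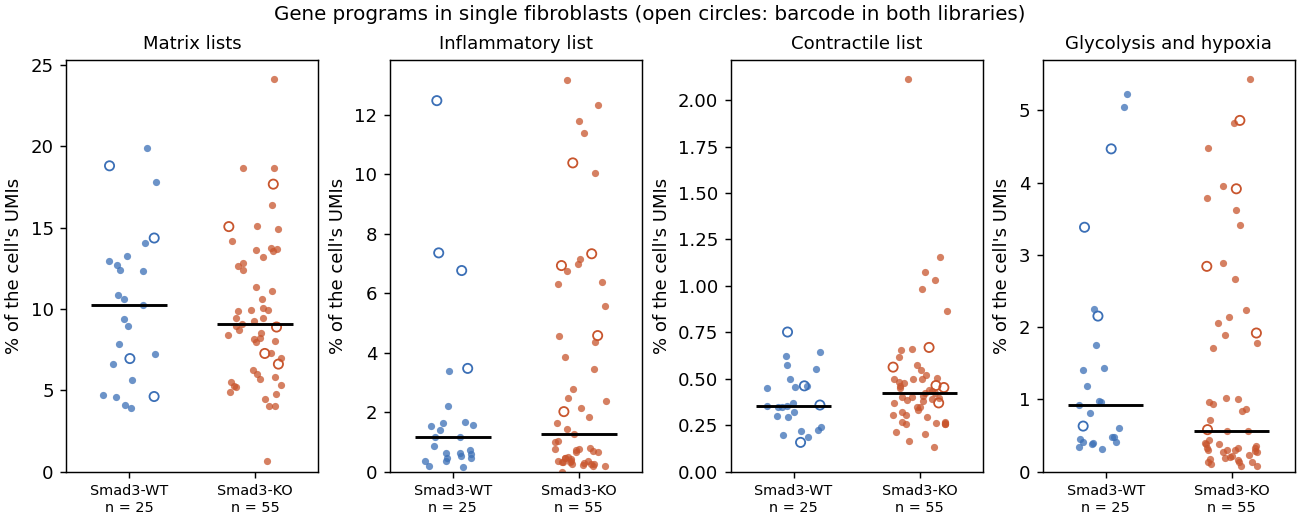
Share of each fibroblast's UMIs (y axis, percent) in the matrix, inflammatory, contractile and glycolysis and hypoxia lists, by library, with bars at the median and open circles for barcodes found in both libraries. Inflammatory medians are 1.15% and 1.28%, with a long upper tail in Smad3-KO and 4 shared barcodes at the top of Smad3-WT.

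Saa3 followed the same pattern. In Smad3-WT 12 of 25 fibroblasts had a UMI of Saa3, with a median of 0 and a highest value of 174 UMIs. In Smad3-KO 29 of 55 had a UMI, with a median of 4 and a highest value of 1009 UMIs, which was 9.88% of that cell's UMIs. At least 1% of UMIs, a limit set after the values were seen, was reached by 5 Smad3-WT cells (1 of 21 without shared barcodes) and 20 Smad3-KO cells (15 of 50). Cells without Saa3 were common in both libraries, 13 and 26 of them.

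Depth moved with Saa3 in Smad3-KO. The median depth of the 20 Smad3-KO cells above 1% was 8851 UMIs and that of the 26 cells at 0 was 3026 UMIs. In Smad3-WT the 5 cells above 1%, 4 of them with shared barcodes, had a median depth of 633 UMIs and the 13 cells at 0 one of 5119 UMIs. Among cells with at least 5000 UMIs, 1 of 14 Smad3-WT and 18 of 25 Smad3-KO fibroblasts were above 1%, and 13 of 20 Smad3-KO ones without shared barcodes. Among cells under 5000 UMIs, 4 of 11 Smad3-WT cells and 2 of 30 Smad3-KO cells were above 1%. In these shallow cells the log2 ratio of Saa3 was -0.91, with all 4 of the Smad3-WT cells above 1% carrying shared barcodes. Without the shared barcodes it was 4.14, with 3 UMIs over the 7 remaining Smad3-WT cells against 215 over the 30 Smad3-KO ones. Few cells carry this value: 1 of those Smad3-WT cells and 7 of the Smad3-KO ones had any Saa3, and the highest pair of Smad3-KO cells held 107 and 50 of the UMIs.

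**Figure D4:**
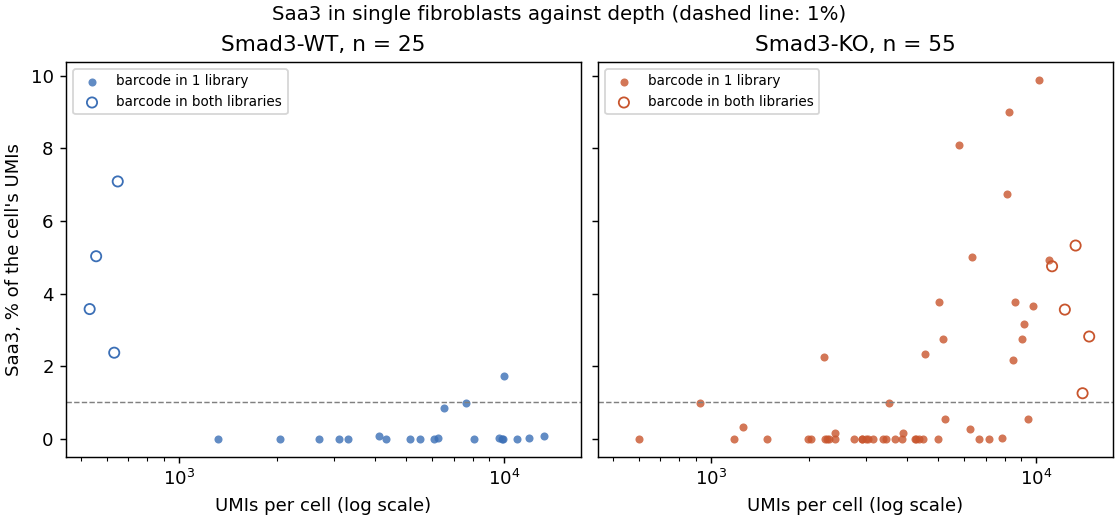
Saa3 as a percent of each fibroblast's UMIs (y axis) against its UMIs (x axis, log scale), Smad3-WT left and Smad3-KO right, with open circles for barcodes in both libraries and a dashed line at 1%. Of cells with at least 5000 UMIs, 1 of 14 in Smad3-WT and 18 of 25 in Smad3-KO lie above the line.

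Inflammatory genes and the glycolysis and hypoxia list varied together from cell to cell. Much of that list was metallothionein: Mt1 held 966 of its 2339 UMIs in Smad3-WT and 3008 of 5659 in Smad3-KO, and Mt2 held 224 and 984. The rank correlation (Spearman's rho) of the shares of the inflammatory list and of the glycolysis and hypoxia list across cells was 0.60 in Smad3-WT (n = 25, 0.51 without shared barcodes). In Smad3-KO it was 0.79 (n = 55, 0.77). Shares of inflammatory genes correlated with depth at 0.60 in Smad3-KO, and those of the glycolysis and hypoxia list at 0.62. In Smad3-WT these values were -0.13 and 0.12 (0.46 and 0.50 without shared barcodes), so the points share depth as well as a library. Matrix and inflammatory shares had a rho of 0.03 in Smad3-WT and -0.13 in Smad3-KO.

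What else set the Saa3-rich cells apart is described for Smad3-KO, where 20 cells above 1% could be set beside 26 cells at 0. This split used Saa3 itself and was made after the values were seen, so it is a description. Of 739 genes with at least 50 UMIs in these cells, 135 (18.3%) were at least 2-fold higher in the Saa3-rich cells and 60 (8.12%) at least 2-fold lower, with a median log2 ratio of -0.02. Fibrillar collagens did not separate: Col1a1 was at 19208 CPM in the Saa3-rich cells and 15339.9 CPM in the others, and 0 of 6 genes of the list were 2-fold apart.

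The Saa3-rich cells held other acute-phase genes and the glycolysis and hypoxia genes. Hp had 779 and 0 UMIs, at least 125-fold higher, taking 3 UMIs over the group as the floor, so all Hp UMIs of these 2 sets were in Saa3-rich cells. Lcn2 was at 5498 and 47.0 CPM, Ptx3 at 1074 and 11.8 CPM and Cxcl5 at 1803 and 23.5 CPM. Leaving out Saa3, 17 of 21 inflammatory genes were at least 2-fold higher and 0 lower (27588 and 6023 CPM summed), beside 18.3% and 8.12% of all genes. All 12 glycolysis and hypoxia genes with at least 50 UMIs were at least 2-fold higher (26927 and 3047 CPM summed), among them the metallothioneins Mt1 (14546 and 1682 CPM) and Mt2 (4668 and 200 CPM), Ldha, lactate dehydrogenase (1209 and 141 CPM), and Pkm, pyruvate kinase (932 and 82.3 CPM). Several genes that were higher in the Smad3-KO library belonged to the same cells: Tnc had 358 and 0 UMIs, at least 57.3-fold higher, Timp1 was at 3571 and 70.6 CPM and Lox at 1384 and 35.3 CPM. Nos2, inducible nitric oxide synthase, had 77 and 0 UMIs. Neutrophil markers moved with the split as well, at 1577 and 423 CPM summed. S100a8 was at 429 and 70.6 CPM and S100a9 at 740 and 247 CPM. Lyz2 of macrophages went the same way, at 413 and 58.8 CPM. The 10 macrophage markers summed the other way, at 1091 and 2259 CPM, with Apoe of that list at 526 and 2141 CPM. Lcn2 and Cxcl2 of the inflammatory list are also neutrophil transcripts, and the part of neutrophil RNA in the split was not tested.

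The cells without Saa3 held more of the resting fibroblast genes. Of 14 further fibroblast genes, 6 were at least 2-fold lower in the Saa3-rich cells and 1, Pdpn, at least 2-fold higher, beside 8.12% and 18.3% of all genes in this split. Gsn, the actin-severing gelsolin, was at 571 CPM in Saa3-rich cells and 6317 CPM in the others, Clec3b at 639 and 3859 CPM, Dpt at 407 and 1318 CPM, and Cd34 at 316 and 1059 CPM. Igfbp5, a binding protein of insulin-like growth factors, showed the widest gap, at 56.5 and 2659 CPM. Postn (469 and 1765 CPM), Timp2 (446 and 2094 CPM) and Apoe (526 and 2141 CPM) went the same way. Pi16 differed less, at 768.5 and 1412 CPM.

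**Figure D5:**
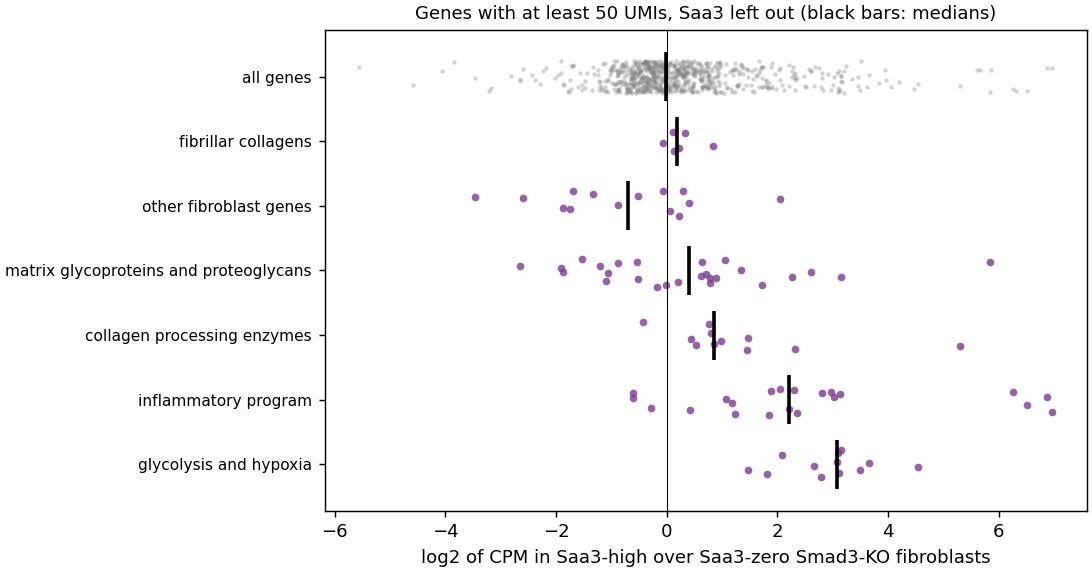
The log2 ratio of CPM in 20 Saa3-rich over 26 Saa3-zero Smad3-KO fibroblasts (x axis) for genes with at least 50 UMIs, by gene list (rows), with medians as black bars and Saa3 left out. All 12 glycolysis and hypoxia genes lie at least 2-fold to the right, and fibrillar collagens lie around 0.

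The core myofibroblast genes were nearly absent. Among them, Acta2 (smooth muscle actin) was at 4 UMIs in the Smad3-WT cells and at 21 in the Smad3-KO cells, 20 of the latter in 1 cell, Tagln 0 and 5, Myl9 0 and 4, Tpm2 0 and 5, and Myh11 and Cnn1 none. With so few UMIs these genes were not compared between the libraries. The 32 listed genes summed to 4150 CPM in Smad3-WT and 4759 CPM in Smad3-KO, a ratio of 1.15 (1.04-1.26), with 1 of 10 genes at least 2-fold higher and 0 lower (10% and 0%, beside 8.14% and 4.8% of all genes) and a median log2 ratio of 0.25. The log2 ratio of the sum was 0.20, but -0.025 in cells with at least 5000 UMIs, -0.13 there without the shared barcodes, and 1.10 in cells under 5000 UMIs. The sum is made up of genes with other uses too. Cald1, caldesmon, which binds actin, was the 1 past 2-fold at 201 and 486 CPM (2.41, 1.61-3.73). Postn, a matrix protein listed here and with the glycoproteins, was at 500 and 902 CPM (1.80, 1.39-2.37), the integrin chain Itgb1 at 1.64 and the myosin light chain Myl6 at 0.70. Contractile shares per cell had medians of 0.353% and 0.422%.

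The TGF-beta pathway genes reported here were each less than 2-fold apart where they had at least 50 UMIs. Tgfbr2, the receptor chain that binds the ligand, was at 875 CPM in Smad3-WT and 862 CPM in Smad3-KO (0.99, 0.79-1.23), and the co-receptor Tgfbr3 at 257 and 294 CPM (1.14). Of 35 listed genes found in the file, 8 had at least 50 UMIs, with a median log2 ratio of 0.16. Of these 8, 0 were at least 2-fold higher or lower, beside 8.14% and 4.8% of all genes. With 8 genes this count is near those shares and does not set the list apart. Cyr61, a matricellular gene, was at 208 and 410 CPM (1.97, 1.31-3.04). Smad3 itself (chr9:63646767-63757994) was at 4 and 11 UMIs. The tags of a 5′ kit lie at the start of the transcript, and whether the disrupted allele still gives such tags is not known from these files, so they check nothing about genotype.

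Growth factors went both ways. Of 12 genes, 3 were at least 2-fold higher and 3 at least 2-fold lower in Smad3-KO fibroblasts (25% each, beside 8.14% and 4.8% of all genes), with a median log2 ratio of -0.01. The higher ones were Fgf7, a growth factor for epithelia (76.3 and 291 CPM, 3.81), Vegfa, the angiogenic factor (146 and 357 CPM, 2.45, but short of 2-fold as the mean over cells, with log2 ratios of 0.55 and, without the shared barcodes, 0.86), and Igfbp3 (6 and 51 UMIs, 47.1% of the latter in 1 cell). The lower ones were Igf1 (389 and 99.1 CPM, 0.25, 0.16-0.40), Gas6, the ligand of Axl (472 and 145 CPM, 0.31), and Wnt2 (222 and 85.9 CPM, 0.39). Wisp2, a secreted protein of the CCN family found in fibroblasts (chr2:163820861-163833146), was at 618 and 92.5 CPM (0.15, 0.09-0.23), with UMIs in 14 of 25 and 12 of 55 cells. Wisp2 was at 1.97 CPM or less in the other cells of either library.

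Complement genes summed to 5948 and 8389 CPM (1.41, 1.30-1.53), and 3 of 8 were at least 2-fold higher (37.5%, beside 8.14% of all genes) with 0 lower (beside 4.8%): C1s1, a protease of the first component (604 and 1235 CPM, 2.05), Cfb, of the alternative pathway (90.2 and 347 CPM, 3.84), and Cd55, which restrains complement on the cell surface (83.3 and 291 CPM, 3.49). C1s1 fell short of 2-fold without the deepest cell of each library, at a log2 ratio of 0.92. Cfb fell short as the mean over cells, at 0.90, but came to 1.45 there without the shared barcodes. C3 itself stood at 1458 and 2008 CPM (1.38, 1.18-1.62). Class I genes were also higher for H2-D1 (1291 and 2722 CPM, 2.11) and H2-K1 (1.62) but not for B2m (0.88). The class II genes H2-Aa (20.8 and 760 CPM), H2-Ab1 (34.7 and 215 CPM) and Cd74 (167 and 753 CPM) were largely in few cells: 1 Smad3-KO cell held 59.1% of the H2-Aa and 46.5% of the Cd74 UMIs. In fibroblasts without UMIs of other lineages the log2 ratio of Cd74 was 0.64, short of 2-fold, and that of H2-Aa 3.67. The remaining cells of the libraries held 687 and 3872 CPM of H2-Aa, and the part of free RNA was not tested. Interferon genes gave 0 of 8 past 2-fold either way, beside 8.14% higher and 4.8% lower of all genes, with a median log2 ratio of -0.36. With 8 genes this count is near those shares.

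Glycolysis and hypoxia genes summed to 16234 and 18691 CPM, with 2 of 15 at least 2-fold higher and 1 lower (13.3% and 6.67%, beside 8.14% and 4.8% of all genes) and a median log2 ratio of -0.22. The log2 ratio of the sum was 0.20, but 1.20 in fibroblasts without UMIs of other lineages, -0.11 as the mean over cells and -0.54 in cells under 5000 UMIs, so its direction depends on which cells are counted. Mt2 was at 1555 and 3250 CPM (2.09), or a log2 ratio of 2.91 in fibroblasts without UMIs of other lineages. As the mean over cells its log2 ratio was 0.85, short of 2-fold, or 1.08 without the shared barcodes. Gapdh (chr6:125161715-125166467) was at 2630 and 846 CPM, while Gm3839, on chr14:11280735-11356726 and close in sequence to Gapdh, was at 20.8 and 515 CPM, and lymphocytes showed the same, at 6261 and 952 CPM of Gapdh and 11 and 1005 CPM of Gm3839. Tags of these 2 genes may have been split between them, so neither ratio can be read alone. Immediate early genes gave 1 of 11 at least 2-fold higher and 2 lower (9.09% and 18.2%, beside the same shares), and of 18 cell cycle genes only Tuba1b reached 50 UMIs.

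Some genes far apart between the libraries were not fibroblast genes. Among the lowest ratios were those of macrophage and neutrophil transcripts: Pf4 (722 and 3.30 CPM), Spp1 (708 and 16.5 CPM), Ccl6 (2075 and 62.8 CPM), Ccl9, Cxcl3, Hmox1, Lyz2 (2811 and 261 CPM) and Clec4e. In lymphocytes, which should lack them, the same genes stood at like levels: Lyz2 at 1707 and 243 CPM, Pf4 at 694 and 0.864 CPM, and Ccl6 at 2125 and 78.6 CPM. The 10 macrophage markers summed to 3949 and 1493 CPM, led by Lyz2 in Smad3-WT and by Apoe (1100 CPM) in Smad3-KO. The 10 neutrophil markers summed to 1784 and 1070 CPM, led by S100a9. Some genes of both lists were capped by the definition of fibroblasts. Lyz2 UMIs were in 9 of 25 and 5 of 55 fibroblasts, and 1 Smad3-WT cell held 68.3% of the Pf4 UMIs. Whether these came from free RNA or from droplets with more than 1 cell was not tested. Restricted to the 13 Smad3-WT and 37 Smad3-KO fibroblasts with no UMI of the 10 other-lineage markers, 78 of 643 genes were at least 2-fold higher and 22 at least 2-fold lower, and the log2 ratio of the inflammatory list was 2.27, against 1.85 in all fibroblasts.

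The highest ratios outside the groups above included Car4, a carbonic anhydrase (27.8 and 459 CPM, 16.5, 6.32-61.5), Cyp26b1, which degrades retinoic acid (27.8 and 251 CPM, 9.04, 3.39-34.0), Nos2 (34.7 and 271 CPM, 7.80, 3.21-24.7) and Apoe, a lipid carrier (146 and 1100 CPM, 7.55, 4.86-12.4). The log2 ratio of Car4 as the mean over cells was 0.63, short of 2-fold, and 5.50 without the shared barcodes. Apoe had UMIs in 6 of 25 and 47 of 55 fibroblasts, compared with 8 of 31 and 52 of 617 lymphocytes, so in Smad3-KO it was spread across fibroblasts in a way the lymphocytes did not share. Trdc, a T cell receptor constant region, had 3 and 50 UMIs. It was 122-fold and 31.7-fold higher in fibroblasts than in the other cells of each library, while all 7 T and NK cell markers had 0 UMIs. What these Trdc tags stand for was not tested. The top ratio was that of Xist, which is expressed from the inactive X chromosome of females: 1 of the 25 Smad3-WT fibroblasts and 40 of the 55 in Smad3-KO had UMIs of it (1 and 148 UMIs), while 4 Y-linked genes had 15 and 4 UMIs. Over all quality-filtered cells Xist stood at 0.340 and 471 CPM. The sex makeup of the pools and genotype therefore cannot be told apart in any of these comparisons.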

How the data were processed

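The authors deposited a matrix of raw counts of UMIs per gene and barcode, made with Cell Ranger 3.0.2 on mm10, without normalization and before quality filters on cells. Its 4116 and 2514 barcodes are the cell numbers that the study gives, so barcodes not counted as cells are absent from it. Libraries were told apart by the barcode suffix, and each was recognized from the authors' deposited averages, a signal per gene that the summed UMIs matched to within 3.58e-08. Columns of the authors' fold changes and p-values were not used. UMIs were summed over the fibroblasts of a library (CPM, exact Poisson intervals), and ratios carry an exact interval from the split of UMIs, at 95%. Some genes are not reported here and were left out of the lists. No doublet caller was run, and cells with markers of other lineages were kept out only by the definition. Genes needed 50 UMIs, and 2-fold was the limit for counting a gene as different. Lymphocytes were cells with at least 2 UMIs of Cd79a and Cd3e, a class added after the data were seen. Named genes were in a list and had 50 UMIs, defined a cell type, were Smad3, or ranked among the 20 highest levels, the 15 highest or lowest ratios or the 15 highest folds over other cells. Il6, Csf3, the contractile genes under 50 UMIs, Tgfbr3 and genes named for Y-linkage were chosen after their values were seen. Members, lists and alternatives were chosen with earlier results of these data known. Intervals were tested on simulated data. The simulated UMIs were drawn independently, as the intervals assume, so this says nothing of UMIs that gather in few cells. Scripts ran under Python 3.11.15 with matplotlib 3.10.9, pandas 2.3.3, scipy 1.17.1 and numpy 2.4.6 (seed 1).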

Additional observations from a re-analysis of the deposited data

How the results depend on the processing

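No paired analysis was possible because each genotype had 1 library and the labels gave no replicate numbers. Intervals cover counting error only, and with 144080 and 302770 UMIs genes under about 20 CPM could not be compared. Under the 5 of 17 alternatives that bear on them, the fibroblast shares of 0.641% and 2.26% moved by less than their intervals. Halved thresholds and thresholds as a share of UMIs again gave 25 and 55 cells. Of 484 values for single genes 393 stayed within the counting interval of the reported value. Among the 484, the limit of 20000 UMIs per cell and the halved thresholds kept the same fibroblasts, so their values could not differ. Changed totals and median-of-ratios scaling shift all ratios alike. Values here are log2 ratios of Smad3-KO to Smad3-WT of summed lists, reported as -0.025 (matrix), 1.85 (inflammatory), 1.0 (inflammatory without Saa3) and 0.20 (contractile), and counts of genes at least 2-fold higher and lower, reported as 100 and 59.

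Doubled marker thresholds gave matrix 0.016, inflammatory 2.0 and without Saa3 1.09. Totals without mitochondrial and ribosomal protein genes gave matrix -0.053, and leaving out the deepest cell of each library gave matrix -0.059. Median-of-ratios scaling gave 141 genes higher and 35 lower, matrix 0.17, inflammatory 2.05, without Saa3 1.20 and contractile 0.40. The mean over cells gave inflammatory 0.61 and without Saa3 0.32, and it turned Cxcl1 to -0.31 and Il33 to -0.57 and brought 16 of 40 genes past 2-fold below it, among them Saa3 (0.94), Lcn2 (0.88), Ptx3 (0.69), Saa1 (0.66), Car4 (0.63), Hp (0.59), Cxcl5 (0.58), Ccl2 (0.58), Vegfa (0.55), Lox (0.47), Tnc (0.34) and Timp1 (0.0043). Fibroblasts without UMIs of other lineages gave 78 genes higher and 22 lower of 643 tested, inflammatory 2.27, without Saa3 1.40 and contractile 0.41. A gene minimum of 100 UMIs gave 49 and 30 of 626 genes, and of 10 UMIs 724 and 537 of 5756, as more or fewer genes were tested.

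Further alternatives were chosen after seeing the data. Without shared barcodes, matrix was -0.061 and inflammatory without Saa3 0.90. The mean over cells without shared barcodes gave inflammatory 1.47, without Saa3 0.69 and contractile 0.35. In fibroblasts with at least 5000 UMIs, inflammatory was 2.25, without Saa3 1.29 and contractile -0.025, and without shared barcodes matrix was -0.079, inflammatory 2.23, without Saa3 1.22 and contractile -0.13. Under 5000 UMIs, 31 genes were higher and 21 lower of 285, matrix was 0.044, contractile 1.10, and 3 results reversed: inflammatory -0.45, without Saa3 -0.26 and Saa3 -0.91. In that range without shared barcodes, 28 were higher and 23 lower of 278, with matrix 0.075, inflammatory 0.58, without Saa3 0.20, Saa3 4.14 and contractile 1.20. The cause of these changes was not tested.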
